A study of Homo sapiens with 3 samples.

Results

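The genes described here make, sense, move, store and export cholesterol. They are 33 genes fixed by name, from the enzymes of synthesis and the sterol sensor to transporters, esterifying enzymes and the surface receptor for high-density lipoprotein, and all 33 were found by symbol among 52676 gene names present in all 3 libraries. The rule goes by gene name and uses no measured value, but the set was proposed with earlier results of these data known. Of the 33, 29 had a mean of at least 1 FPKM over the libraries, as had 11787 gene names in all, and comparisons were made over these. The RNA came from PLC, a long-established line of human liver cancer (hepatocellular carcinoma), 48 hours after the cells received hairpin viruses, with 1 library in each of 3 groups. The shDIS3L2 group received hairpins that target DIS3L2, an enzyme that degrades RNA carrying uridine tails. The shHNRNPU group received hairpins that target HNRNPU, the gene of hnRNP U, a protein that binds RNA in the nucleus. The control group received a non-targeting hairpin, so all groups are infected cells of the same line. By its title, the study concerns DIS3L2 and alternative splicing through hnRNP U in this cancer. How many hairpins stand behind a knockdown library is not stated in the sources at hand.

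Cells build cholesterol from acetyl-CoA through mevalonate, farnesyl diphosphate, squalene and lanosterol. When sterols in the endoplasmic reticulum run low, SCAP escorts the transcription factor SREBP-2, the product of SREBF2, to the Golgi, where it is cut and released to switch on the enzymes of synthesis and of lipoprotein uptake; when sterols are plentiful, INSIG1 and INSIG2 hold SCAP back. The liver makes and clears much of the cholesterol of the body, and hepatocytes also export it to high-density lipoprotein and to bile.

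Levels are in FPKM, fragments divided by transcript length and by the mapped fragments of the library, and so can be compared between genes per length. The range in parentheses after an FPKM is its deposited interval, a measure of precision inside that library; variation between cultures is not part of it. Without replicates no test across conditions was possible, so differences below have no replicate check. The size rule asks for a log2 ratio, taken after adding 1 to each FPKM, of 1 or more or of -1 or less, together with deposited intervals that lie apart. A weaker count takes every gene whose intervals lie apart, at any size. From what a single fragment was worth in low genes, shDIS3L2 had 0.794 and shHNRNPU 0.852 of the depth of control. The median interval reached 11.8% of the FPKM to either side in shDIS3L2, 11.4% in shHNRNPU and 10.7% in control over all genes tested, and 6.91%, 6.99% and 6.19% over the cholesterol genes, so smaller differences set the intervals of these genes apart. DIS3L2 stood at 3.23 FPKM (2.31 to 4.15) in shDIS3L2 and 11.2 FPKM (10.04 to 12.4) in shHNRNPU, against 7.61 FPKM (6.7 to 8.53) in control. HNRNPU stood at 232 FPKM (224 to 241) in shDIS3L2 and 33.5 FPKM (31.8 to 35.2) in shHNRNPU, against 178 FPKM (172 to 184) in control. Each targeted gene was lower in the library that carries its name; the locus of DIS3L2 is shared with AC068134.10 and that of HNRNPU with its antisense gene HNRNPU-AS1. Of the hepatocyte markers ALB, AFP, APOA1, FGA, HPX and TTR, 5 had intervals above 0 in every library, and that of ALB reached 0 in shDIS3L2. The 6 stood at a summed 331 FPKM in shDIS3L2 and 399 in shHNRNPU, against 928 in control; 4 of 6 were lower by the size rule in each knockdown. The epithelial markers KRT8, KRT18 and EPCAM summed to 3669.8 FPKM in shDIS3L2 and 4307 FPKM in shHNRNPU, against 4640.1 FPKM in control. Defining markers of blood (PTPRC, HBB) and endothelium (VWF, CDH5) were at 0 or at most 0.442 FPKM, CD68 shares its locus with other genes and PECAM1 was not matched, and the 4 markers of fibroblasts summed to at most 3.40 FPKM in any library.

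More of the cholesterol genes stood lower than higher in both knockdowns, and few of the differences passed the size rule. In shDIS3L2, 16 of 29 lay below control with intervals apart (55.2%, against 25.3% of all genes tested) and 5 above (17.2%, against 32.7%). In shHNRNPU, 14 of 29 lay below control (48.3%, against 23.4%) and 5 above (17.2%, against 34.9%). The size rule called 4 lower in shDIS3L2, 13.8% of them against 7.58% of all genes, and 0 higher, against 8.95%. In shHNRNPU it called 4 lower, against 7.46% of all genes, and 1 higher, against 8.32%. The median log2 ratio over the 29 was -0.35 in shDIS3L2 and -0.14 in shHNRNPU, beside 0.09 and 0.12 over all genes tested. Both knockdowns are set against the same control library, so their values for a gene are given side by side and are not independent of each other. In a bulk sample, fewer cells of a type and less RNA per cell cannot be told apart. The hepatocyte markers above stood lower in both knockdowns as well, and their part in these differences was not tested.

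Of the 29, 23 in shDIS3L2 and 24 in shHNRNPU, against 25 in control, exceeded the median FPKM of all genes tested, so the counts were repeated over genes with a mean of at least 5 FPKM. There, 15 of 25 cholesterol genes lay below control in shDIS3L2, beside 29.6% of 8267 genes, and 4 above, beside 37.9%. In shHNRNPU, 13 of 25 lay below, beside 28.2%, and 3 above, beside 39%. Rescaling the libraries by the median of ratios lowered the log2 ratios, to a median over the 29 of -0.45 in shDIS3L2 and -0.30 in shHNRNPU, with 0.00 over all genes in both. After it, 17 and 15 of the 29 lay below control with intervals apart in shDIS3L2 and shHNRNPU, beside 29.3% and 29.8% of all genes.

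**Figure D1:**
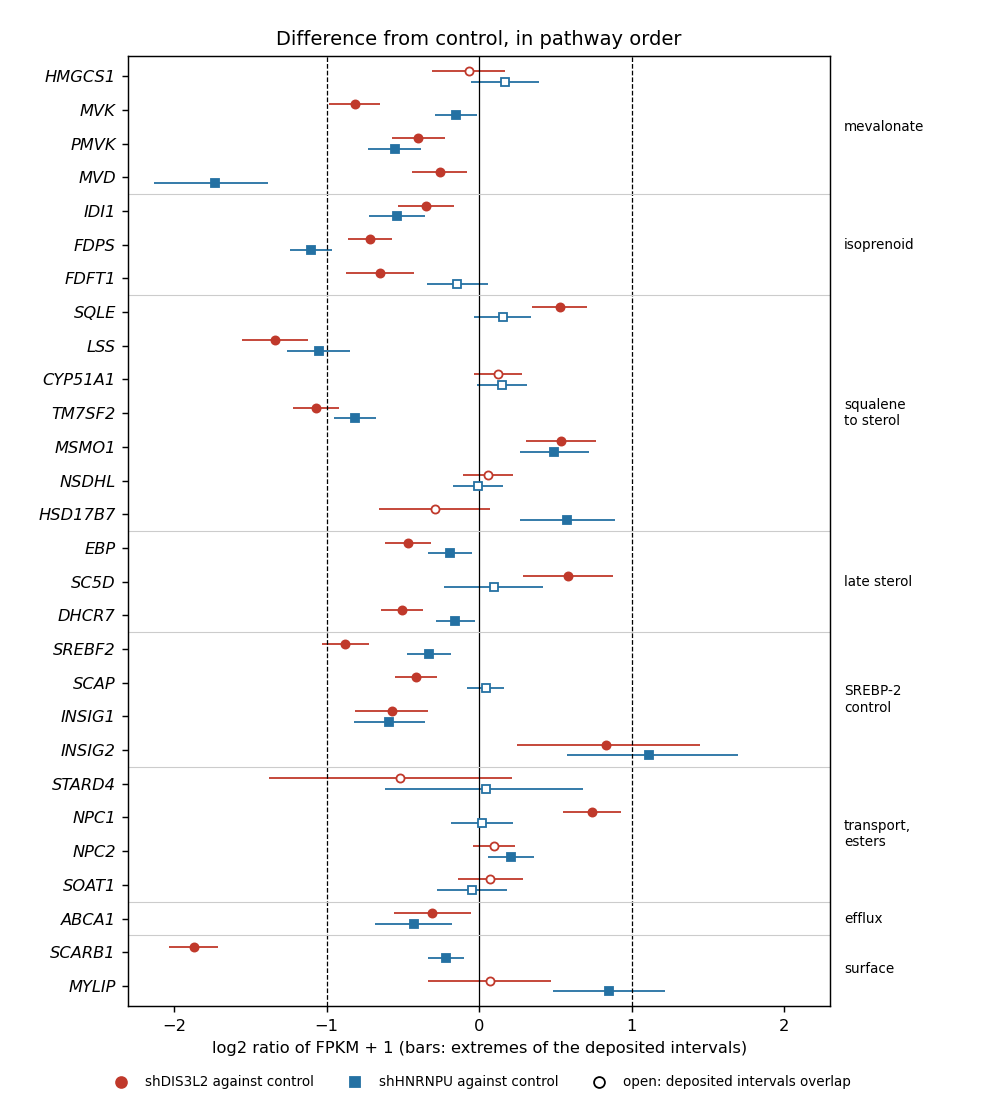
The log2 ratio of FPKM plus 1 against control for the 28 cholesterol genes with a value above 0 in every library, in pathway order from top to bottom, for shDIS3L2 (circles) and shHNRNPU (squares). Horizontal bars run between the extremes the deposited intervals allow, open symbols mark intervals that overlap with control, and dashed lines mark log2 ratios of -1 and 1; LSS is past -1 in both knockdowns, SCARB1 and TM7SF2 in shDIS3L2, and MVD, FDPS and, to the right, INSIG2 in shHNRNPU.

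**Figure D2:**
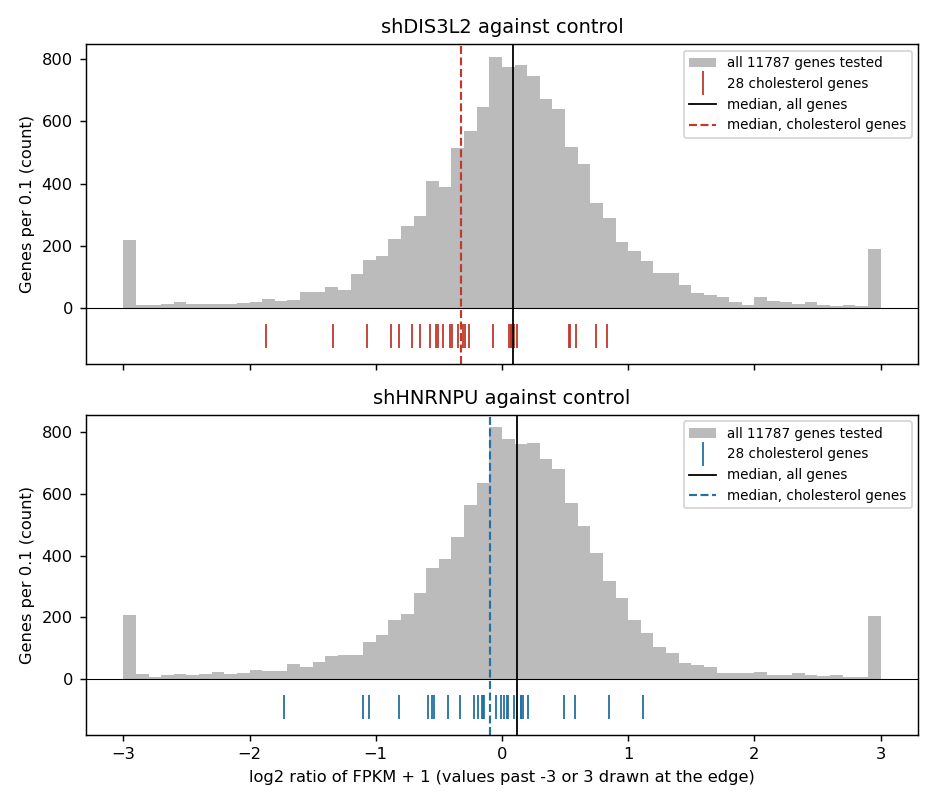
Number of genes per 0.1 of log2 ratio of FPKM plus 1 for all 11787 genes tested (grey), with the 28 cholesterol genes above 0 as ticks below each histogram, for shDIS3L2 (upper panel) and shHNRNPU (lower panel) against control. The dashed median of the cholesterol genes, -0.33 in shDIS3L2 and -0.09 in shHNRNPU without ACAT2, stands to the left of the solid median of all genes in both panels.

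The first enzymes lead from acetyl-CoA to the activated isoprene unit. HMGCS1, which makes HMG-CoA, stood at 11.9 FPKM (10.7 to 13) in shDIS3L2 and 14.2 FPKM (13 to 15.4) in shHNRNPU, against 12.5 FPKM (11.5 to 13.5) in control, with intervals that overlapped throughout. MVK, mevalonate kinase, stood at 41.9 FPKM (39.1 to 44.7) in shDIS3L2 and 67 FPKM (63.7 to 70.3) in shHNRNPU, against 74.6 FPKM (70.9 to 78.2) in control. Its ratio to control was 0.562 (between 0.50 and 0.631 from the ends of the intervals) in shDIS3L2 and 0.898 (between 0.814 and 0.991 from the ends of the intervals) in shHNRNPU, so the difference was small in shHNRNPU. The MVK locus overlaps at its start with that of MMAB, a gene of vitamin B12 metabolism, which was at 21.4 FPKM in shDIS3L2 and listed at 0 in shHNRNPU, against 37.2 FPKM in control. PMVK, phosphomevalonate kinase, stood at 55.2 FPKM (52 to 58.5) in shDIS3L2 and 49.5 FPKM (46.6 to 52.5) in shHNRNPU, against 73.1 FPKM (68.6 to 77.7) in control. Both knockdowns lay below control for PMVK, and their intervals overlapped each other.

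MVD, mevalonate diphosphate decarboxylase, which ends the mevalonate steps, differed most between the knockdowns among these enzymes. It lies on chromosome 16, 88718343 to 88729569 (hg19, as are the other loci given in this form), and stood at 62.5 FPKM (58.5 to 66.6) in shDIS3L2 and 21.9 FPKM (17.4 to 26.4) in shHNRNPU, against 75 FPKM (70.3 to 79.6) in control. The ratio to control was 0.292 (between 0.219 and 0.375 from the ends of the intervals) in shHNRNPU, a log2 ratio of -1.73 that passed the size rule, and 0.834 (between 0.734 and 0.946 from the ends of the intervals) in shDIS3L2, which did not. The interval in shHNRNPU was wide for this level, 20.4% of the FPKM to either side beside 6.18% in control, and still lay apart from both other libraries.

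ACAT2, the cytosolic thiolase that joins the first acetyl-CoA units, was listed at 0 in both knockdowns, against 79.7 FPKM (75.3 to 84.1) in control. An exact 0 in such tables can be a failed estimate, and no fold is given. In shDIS3L2 its locus had been merged with that of the neighbouring WTAP, a subunit of the messenger RNA methyltransferase complex, which was itself listed at 0 in all 3 libraries. In every library the ACAT2 locus overlaps SOD2, at 515 FPKM in shDIS3L2 and 376 FPKM in shHNRNPU, against 240 FPKM in control. It also overlaps a locus named TCP1, SNORA20 and SNORA29, at 133 FPKM in shDIS3L2 and 172 FPKM in shHNRNPU, against 109 FPKM in control. ACAT2 is counted among the 4 lower genes of each knockdown by the size rule. It is also counted among the genes, and the enzymes of synthesis, below control with intervals apart in each knockdown. Without genes listed at 0, 15 of 28 lay below control with intervals apart in shDIS3L2, beside 24.4% of all genes. By the size rule, 3 of 28 were then lower in each knockdown, beside 5.71% of all genes in shDIS3L2 and 5.53% in shHNRNPU.

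Of the 3 isoprenoid enzymes, IDI1 and FDPS lay below control with intervals apart in both knockdowns. IDI1, the isomerase that makes the isoprene unit reactive, stood at 33.4 FPKM (31.1 to 35.8) in shDIS3L2 and 29.2 FPKM (27.1 to 31.3) in shHNRNPU, against 42.8 FPKM (40.2 to 45.4) in control. FDPS, which makes farnesyl diphosphate, the branch point to cholesterol, ubiquinone and protein prenylation, lies on chromosome 1, 155278539 to 155290457, and stood at 127 FPKM (120.0 to 134) in shDIS3L2 and 97.1 FPKM (91.9 to 102) in shHNRNPU, against 209 FPKM (200.5 to 218) in control. The ratio of FDPS to control was 0.607 (between 0.549 and 0.67 from the ends of the intervals) in shDIS3L2 and 0.464 (between 0.421 and 0.511 from the ends of the intervals) in shHNRNPU, and the second, a log2 ratio of -1.10, passed the size rule. FDPS was the lower in shHNRNPU of the knockdowns, with intervals apart, and of the 8 FDPS pseudogenes in the tables none exceeded 0.1 FPKM in any library.

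FDFT1, squalene synthase, which commits farnesyl diphosphate to sterols, had the opposite order. It stood at 24.4 FPKM (22.2 to 26.7) in shDIS3L2 and 35.1 FPKM (32.5 to 37.7) in shHNRNPU, against 38.9 FPKM (36.2 to 41.5) in control, below control with intervals apart in shDIS3L2 only; in shHNRNPU the intervals overlapped, although they lay apart after rescaling. The log2 ratio between the knockdowns, shHNRNPU over shDIS3L2, was 0.51 for FDFT1 and -0.38 for FDPS.

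The enzymes that turn squalene into sterols did not stand on the same side of control. SQLE, squalene epoxidase, which catalyses the first oxygen-requiring step, stood at 40.2 FPKM (37.7 to 42.8) in shDIS3L2 and 30.8 FPKM (28.7 to 32.9) in shHNRNPU, against 27.6 FPKM (25.8 to 29.4) in control. LSS, lanosterol synthase, which closes the sterol rings in the next step, stood at 18 FPKM (16.7 to 19.3) in shDIS3L2 and 22.2 FPKM (20.8 to 23.7) in shHNRNPU, against 47.2 FPKM (43.3 to 51) in control. Thus SQLE lay above control in shDIS3L2 while LSS lay below control in both knockdowns, and LSS was the only gene above 0 in every library that passed the size rule in both, at log2 ratios of -1.34 and -1.05 in shDIS3L2 and shHNRNPU. With a pseudocount of 5 it had -0.94 in shHNRNPU and did not pass. Within a library, the ratio of SQLE to LSS was 2.23 in shDIS3L2 (1.95 to 2.56 from the ends of the intervals) and 1.39 in shHNRNPU (1.21 to 1.59), against 0.5854 in control (0.505 to 0.68), a comparison that no scaling of the libraries affects. The LSS locus, on chromosome 21, 47608055 to 47648738, also carries the overlapping name AP001468.1 in all 3 libraries.

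CYP51A1, the demethylase that acts first on lanosterol, stood at 40.2 FPKM (38 to 42.5) in shDIS3L2 and 41 FPKM (38.6 to 43.4) in shHNRNPU, against 36.9 FPKM (34.8 to 39) in control, and its intervals overlapped throughout; the locus is merged with LRRD1 in all 3 libraries, so the values do not belong to CYP51A1 alone. TM7SF2, a sterol reductase of the following step, stood at 59.4 FPKM (55.6 to 63.3) in shDIS3L2 and 71.2 FPKM (67.1 to 75.3) in shHNRNPU, against 126 FPKM (121 to 131) in control. This locus, on chromosome 11, 64856796 to 64883856, is merged with VPS51, a subunit of a vesicle tethering complex, in all 3 libraries, so the values do not belong to TM7SF2 alone. The merged locus was lower by the size rule in shDIS3L2, with a log2 ratio of -1.07, and had -0.81 in shHNRNPU.

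Removal of further methyl groups from the sterol ring takes 3 enzymes. MSMO1, the methylsterol oxidase, stood at 22.4 FPKM (20.6 to 24.3) in shDIS3L2 and 21.7 FPKM (19.9 to 23.5) in shHNRNPU, against 15.1 FPKM (13.9 to 16.4) in control, above control with intervals apart in both knockdowns and nearly equal in the pair. NSDHL, the dehydrogenase that acts next, stood at 47.7 FPKM (44.8 to 50.6) in shDIS3L2 and 45.5 FPKM (42.8 to 48.3) in shHNRNPU, against 45.8 FPKM (43.2 to 48.3) in control, with ratios to control of 1.04 (between 0.928 and 1.17 from the ends of the intervals) and 0.995 (between 0.885 and 1.12 from the ends of the intervals) in shDIS3L2 and shHNRNPU. HSD17B7, the keto reductase, stood at 9.86 FPKM (8.39 to 11.3) in shDIS3L2 and 18.8 FPKM (16.8 to 20.8) in shHNRNPU, against 12.3 FPKM (10.8 to 13.8) in control. HSD17B7 was above control with intervals apart in shHNRNPU, and its interval in shDIS3L2 overlapped that of control, though not after rescaling, when it lay below. Its pseudogene HSD17B7P2, which can share fragments with it, stood below 1 FPKM in each library.

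Among the late enzymes, EBP, the sterol isomerase, stood at 154 FPKM (146 to 163) in shDIS3L2 and 187 FPKM (177 to 197) in shHNRNPU, against 214 FPKM (204 to 224) in control, the highest level of any enzyme of synthesis, although in control its interval overlapped that of FDPS. DHCR7, a reductase of the last steps, stood at 78.1 FPKM (74.1 to 82) in shDIS3L2 and 99.8 FPKM (95.1 to 104) in shHNRNPU, against 111 FPKM (106 to 116) in control. Both were ordered the same way, lowest in shDIS3L2 and highest in control, with all intervals apart. DHCR7 overlaps RP11-660L16.2, at 6.82 FPKM in shDIS3L2 and listed at 0 in shHNRNPU, against 5.95 FPKM in control. SC5D, the desaturase between them, stood at 17 FPKM (15.2 to 18.7) in shDIS3L2 and 11.8 FPKM (10.3 to 13.3) in shHNRNPU, against 11 FPKM (9.73 to 12.2) in control, above both other libraries in shDIS3L2. Over all 18 enzymes of synthesis, 11 lay below control with intervals apart and 3 above in shDIS3L2, and 10 below and 2 above in shHNRNPU. Over all genes tested, 25.3% lay below and 32.7% above in shDIS3L2, and 23.4% below and 34.9% above in shHNRNPU. The enzymes above control were SQLE, MSMO1 and SC5D in shDIS3L2 and MSMO1 and HSD17B7 in shHNRNPU.

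**Figure D3:**
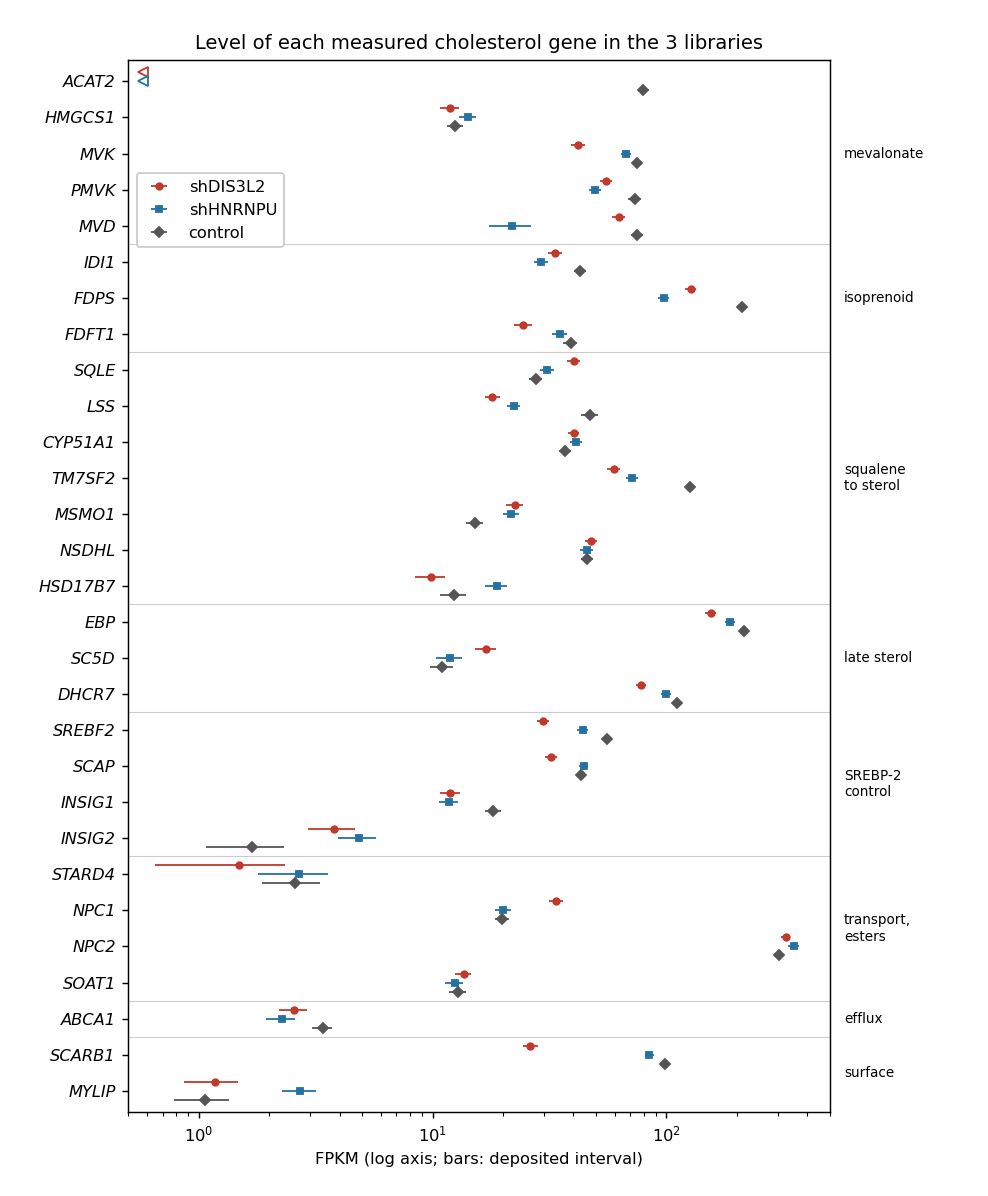
FPKM on a log axis for the 29 cholesterol genes measured, in pathway order from top to bottom, in shDIS3L2 (circles), shHNRNPU (squares) and control (diamonds); bars are the deposited intervals, and open triangles at the left edge mark ACAT2 where it is listed at 0. Control lies to the right for most enzymes of synthesis. SQLE, MSMO1, HSD17B7, SC5D, INSIG2, NPC1, NPC2 and MYLIP have at least 1 knockdown to the right of control with intervals apart.

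In shDIS3L2 all 4 genes of the sterol sensor lay apart from control, and in shHNRNPU all but SCAP. Lying apart was common over all genes tested, with 25.3% below control and 32.7% above it in shDIS3L2. In shHNRNPU these shares were 23.4% and 34.9%. SREBF2, on chromosome 22, 42229109 to 42303312, stood at 29.8 FPKM (27.9 to 31.6) in shDIS3L2 and 44 FPKM (41.6 to 46.3) in shHNRNPU, against 55.5 FPKM (52.8 to 58.2) in control, with intervals apart between all libraries and ratios to control of 0.536 (between 0.48 and 0.599 from the ends of the intervals) in shDIS3L2 and 0.793 (between 0.715 and 0.878 from the ends of the intervals) in shHNRNPU. SCAP, its escort, stood at 32 FPKM (30.2 to 33.9) in shDIS3L2 and 44.3 FPKM (42.3 to 46.3) in shHNRNPU, against 43 FPKM (41.2 to 44.7) in control, so it lay below control in shDIS3L2 only. Neither passed the size rule.

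The INSIG genes went in opposite directions. INSIG1, itself a known target of SREBP-2 and the more abundant of the pair, is on chromosome 7, 155089486 to 155101945 and stood at 11.9 FPKM (10.8 to 13) in shDIS3L2 and 11.8 FPKM (10.7 to 12.8) in shHNRNPU, against 18.2 FPKM (16.7 to 19.7) in control. INSIG2, on chromosome 2, 118846028 to 118868573, stood at 3.8 FPKM (2.94 to 4.66) in shDIS3L2 and 4.85 FPKM (3.95 to 5.75) in shHNRNPU, against 1.7 FPKM (1.08 to 2.31) in control. INSIG1 lay below control and INSIG2 above it in both knockdowns, with intervals apart in each case, and the knockdowns overlapped each other for both genes. INSIG2 passed the size rule in shHNRNPU, with a log2 ratio of 1.12, and had 0.83 in shDIS3L2; with a pseudocount of 0.1 in place of 1 it passed in both, and with 5 in neither; after rescaling, its log2 ratio in shHNRNPU was at the threshold. The ratio of INSIG2 to INSIG1 within a library was 0.319 in shDIS3L2 (0.225 to 0.433) and 0.412 in shHNRNPU (0.307 to 0.538), against 0.0933 in control (0.0548 to 0.139). The interval of INSIG2 in control was wide, 36.5% of its FPKM to either side.

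**Figure D4:**
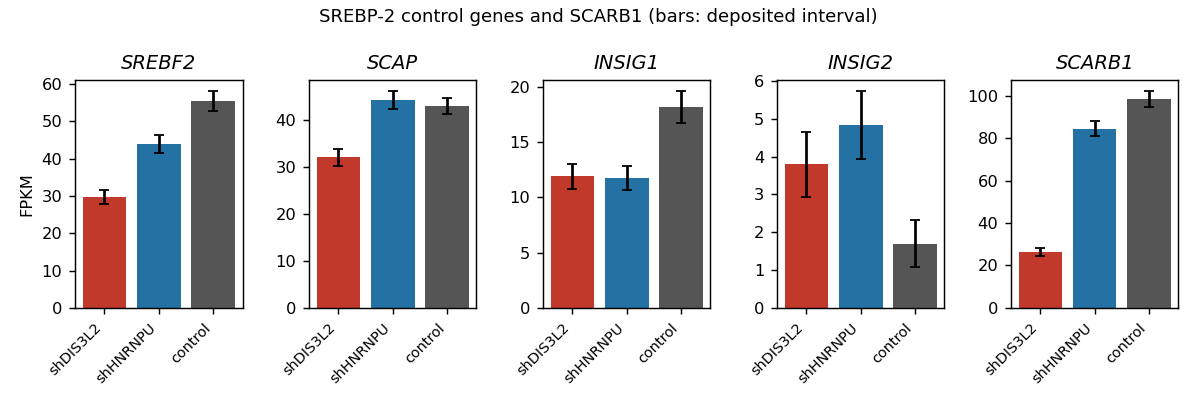
FPKM of SREBF2, SCAP, INSIG1, INSIG2 and SCARB1, each panel on its own linear axis from 0, for shDIS3L2, shHNRNPU and control from left to right; error bars are the deposited intervals. INSIG1 and INSIG2 are displaced from control in opposite directions in both knockdowns, and SCARB1 is far lower in shDIS3L2 than in both other libraries.

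To show the upstream sequence of genes that stood on the same side of control in both knockdowns, the 250 bases before the annotated start were taken from RefSeq (GRCh38.p14, another build than the hg19 of the deposited loci). They are shown for LSS, TM7SF2, FDPS and INSIG1, which were lower, and INSIG2 and MSMO1, which were higher, the 6 with the largest smaller difference among those with a sequence and no value of 0. SREBF2 was added after the search, as the only one of 28 cholesterol genes with a sequence that held the sterol regulatory element core searched for. Capitals mark, on either strand, this core (TCACCCCAC), the E-box (CACGTG), the CCAAT box (CCAAT, or ATTGG on the other strand) and the GC box (GGGCGG, or CCGCCC). Each runs 5′ to 3′ towards the gene. The coordinates are chr21:46228775-46229024 (minus strand) for LSS, chr11:65111622-65111871 (plus strand) for TM7SF2, chr1:155308616-155308865 (plus strand) for FDPS, chr7:155297628-155297877 (plus strand) for INSIG1, chr2:118088221-118088470 (plus strand) for INSIG2, chr4:165327419-165327668 (plus strand) for MSMO1 and chr22:41832855-41833104 (plus strand) for SREBF2.
LSS: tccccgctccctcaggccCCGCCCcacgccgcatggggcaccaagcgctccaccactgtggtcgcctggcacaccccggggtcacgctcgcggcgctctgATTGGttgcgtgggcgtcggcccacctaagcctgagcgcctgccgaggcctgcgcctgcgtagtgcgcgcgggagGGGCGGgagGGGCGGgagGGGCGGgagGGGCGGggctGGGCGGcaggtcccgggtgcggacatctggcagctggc
TM7SF2: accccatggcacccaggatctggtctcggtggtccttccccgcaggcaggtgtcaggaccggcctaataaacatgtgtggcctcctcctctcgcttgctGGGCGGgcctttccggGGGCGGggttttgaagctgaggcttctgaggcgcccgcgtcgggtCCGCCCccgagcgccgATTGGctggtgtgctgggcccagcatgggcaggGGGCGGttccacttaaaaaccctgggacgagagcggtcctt
FDPS: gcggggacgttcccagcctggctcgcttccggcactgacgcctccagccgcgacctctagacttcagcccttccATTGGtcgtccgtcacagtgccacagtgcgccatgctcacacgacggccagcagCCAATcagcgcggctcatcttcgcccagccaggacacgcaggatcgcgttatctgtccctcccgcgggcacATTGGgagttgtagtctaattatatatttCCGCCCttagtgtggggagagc
INSIG1: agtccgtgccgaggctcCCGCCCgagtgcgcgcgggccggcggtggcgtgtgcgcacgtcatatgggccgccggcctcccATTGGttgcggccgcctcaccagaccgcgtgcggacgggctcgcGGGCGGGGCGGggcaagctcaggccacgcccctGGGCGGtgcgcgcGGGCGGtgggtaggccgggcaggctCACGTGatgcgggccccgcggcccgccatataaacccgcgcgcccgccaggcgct
INSIG2: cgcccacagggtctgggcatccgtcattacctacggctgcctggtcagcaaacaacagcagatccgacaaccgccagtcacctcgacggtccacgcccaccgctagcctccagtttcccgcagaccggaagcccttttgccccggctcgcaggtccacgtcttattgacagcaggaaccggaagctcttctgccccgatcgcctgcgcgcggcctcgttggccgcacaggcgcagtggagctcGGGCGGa
MSMO1: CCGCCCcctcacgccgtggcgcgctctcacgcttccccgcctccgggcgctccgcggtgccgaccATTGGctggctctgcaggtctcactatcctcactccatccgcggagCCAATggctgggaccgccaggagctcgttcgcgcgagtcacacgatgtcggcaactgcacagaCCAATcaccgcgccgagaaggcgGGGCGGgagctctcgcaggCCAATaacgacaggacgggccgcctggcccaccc
SREBF2: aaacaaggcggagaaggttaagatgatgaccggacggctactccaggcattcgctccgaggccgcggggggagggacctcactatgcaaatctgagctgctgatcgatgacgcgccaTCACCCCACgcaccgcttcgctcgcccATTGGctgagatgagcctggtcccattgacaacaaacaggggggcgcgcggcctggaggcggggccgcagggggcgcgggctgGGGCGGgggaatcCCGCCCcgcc

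CCAAT boxes were held by 19 of the 28 sequences (67.9%), beside 35.6% of the 7649 sequences of genes tested here and 32% of all 35116 in the table. The 28 include NPC1L1, ABCG5 and ABCG8, which were below the mean required of genes tested. Of these, NPC1L1 held a CCAAT box, and ABCG5 and ABCG8 held no motif searched for. GC boxes were held by 24 (85.7%), beside 69.2% and 42.6%. The E-box was in 4 (ABCA1, INSIG1, SC5D and SCAP), 14.3% beside 9.05% and 6.34%, and the core element in SREBF2 alone, 3.57% beside 0.34% and 0.362%. Of the 7 shown, LSS has 6 GC boxes and 1 CCAAT box, and MSMO1 has 4 CCAAT boxes and 2 GC boxes. INSIG1 has 5 GC boxes, a pair of which overlap, with 1 CCAAT box and 1 E-box, whereas INSIG2 has a single GC box and none of the other motifs. No match of one motif overlapped a match of another. CCAAT and GC boxes occurred in genes of both directions. These are exact matches of letters in a window, not shown binding, and variants of a motif were not searched for. A sequence without a match can therefore still hold a variant. No sequence was matched for ACAT2, FDFT1, SQLE, SOAT2 and SCARB1.

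Transport out of lysosomes uses a pair of proteins. NPC2, the soluble protein that takes up cholesterol in the lumen, was the most abundant of the 33 in every library, at 324 FPKM (309.9 to 339) in shDIS3L2 and 350.1 FPKM (332 to 369) in shHNRNPU, against 303 FPKM (288 to 318) in control. NPC1, the membrane protein that receives it, stood at 33.8 FPKM (31.5 to 36.1) in shDIS3L2 and 20.1 FPKM (18.5 to 21.7) in shHNRNPU, against 19.8 FPKM (18.4 to 21.2) in control. NPC1 was higher in shDIS3L2 than in both other libraries, with a ratio to control of 1.71 (between 1.49 and 1.96 from the ends of the intervals), and did not differ beyond the intervals between shHNRNPU and control. NPC2 lay above control with intervals apart in shHNRNPU, but not after rescaling. NPC1 overlaps C18orf8, which stood at 16.3 FPKM in shDIS3L2 and 23.0 FPKM in shHNRNPU, against 14.6 FPKM in control; the labels do not say that reads kept their strand. The NPC2 locus carries the name of the microRNA gene MIR4709 as well, and it overlaps with that of ISCA2, a gene of iron-sulfur cluster assembly, which was listed at 0 in both knockdowns, against 48.5 FPKM in control.

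STARD4, a cytosolic sterol carrier, stood at 1.49 FPKM (0.647 to 2.32) in shDIS3L2 and 2.68 FPKM (1.79 to 3.58) in shHNRNPU, against 2.57 FPKM (1.86 to 3.28) in control, with intervals too wide to separate the libraries. SOAT1, the acyltransferase that stores cholesterol as esters in most cells, stood at 13.6 FPKM (12.5 to 14.6) in shDIS3L2 and 12.4 FPKM (11.3 to 13.5) in shHNRNPU, against 12.8 FPKM (11.8 to 13.9) in control, and its intervals overlapped throughout. SOAT2, the acyltransferase of hepatocytes and enterocytes, was at 0.0276 FPKM in shDIS3L2 and listed at 0 in shHNRNPU, against 0.0879 FPKM in control. NPC1L1, which takes up sterols at the apical membrane, was at most 0.0376 FPKM in any library. Of SOAT1 and SOAT2, only SOAT1 thus had a mean above 1 FPKM.

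Of the exporters, ABCA1, which loads cholesterol onto apolipoprotein A-I, was the measured gene. It stood at 2.55 FPKM (2.2 to 2.89) in shDIS3L2 and 2.26 FPKM (1.94 to 2.58) in shHNRNPU, against 3.38 FPKM (3.05 to 3.72) in control, below control with intervals apart in both knockdowns, at log2 ratios of -0.31 and -0.43 in shDIS3L2 and shHNRNPU. It overlaps RP11-217B7.2, which was at 1.31 FPKM in shDIS3L2 and 1.08 FPKM in shHNRNPU, against 0.692 FPKM in control. ABCG5, which forms the biliary sterol exporter with ABCG8, was at 0.0714 FPKM in shDIS3L2 and 0.0487 FPKM in shHNRNPU, against 0.0994 FPKM in control, and ABCG8 was listed at 0 in all 3 libraries. APOA1, the acceptor for ABCA1, is not among the 33; it stood at 18.9 FPKM (16.6 to 21.3) in shDIS3L2 and 184 FPKM (175 to 193) in shHNRNPU, against 311 FPKM (299 to 324) in control.

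SCARB1, the receptor through which hepatocytes take cholesterol from high-density lipoprotein, showed the largest difference among the 33 in shDIS3L2, apart from the gene listed at 0. It lies on chromosome 12, 125261402 to 125367214, and stood at 26.2 FPKM (24.2 to 28.1) in shDIS3L2 and 84.5 FPKM (80.9 to 88.1) in shHNRNPU, against 98.5 FPKM (94.5 to 102) in control. The ratio to control was 0.266 (between 0.237 and 0.298 from the ends of the intervals) in shDIS3L2 and 0.858 (between 0.79 and 0.933 from the ends of the intervals) in shHNRNPU, with log2 ratios of -1.87 and -0.22. All 3 intervals lay apart, and only shDIS3L2 passed the size rule. MYLIP, a ubiquitin ligase that sends lipoprotein receptors to degradation, stood at 1.17 FPKM (0.861 to 1.47) in shDIS3L2 and 2.72 FPKM (2.27 to 3.16) in shHNRNPU, against 1.07 FPKM (0.785 to 1.35) in control. It lay above both other libraries in shHNRNPU, with a log2 ratio to control of 0.85, which passed the size rule with a pseudocount of 0.1, at 1.27, and not with 1.

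Set against each other, shHNRNPU stood above shDIS3L2 with intervals apart for 11 of the 29 genes, beside 31.8% of all genes tested, and below it for 5, beside 28.4%. The size rule called 1 gene higher in shHNRNPU, SCARB1 at a log2 ratio of 1.65, beside 10.2% of all genes, and 1 lower, MVD at -1.47, beside 10.5%. The median over the 29 was 0.11, beside 0.03 over all genes. MVK, FDFT1, LSS, TM7SF2, HSD17B7, EBP, DHCR7, SREBF2, SCAP, SCARB1 and MYLIP were the 11 higher in shHNRNPU, and MVD, FDPS, SQLE, SC5D and NPC1 the 5 lower; after rescaling PMVK and IDI1 were lower as well.

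By level, the order of the 29 was similar at its ends in every library. NPC2 and EBP were first and second in each, and STARD4, ABCA1 and MYLIP, with INSIG2 in control, stood near the low end of the genes above 0. Of the 28 pairs of neighbours in the order, 16 had overlapping intervals in shDIS3L2, 17 in shHNRNPU and 17 in control, so most neighbours did not differ beyond their intervals. SCARB1 ranked 16 in shDIS3L2 and 5 in shHNRNPU, against 6 in control, and MVD ranked 5 in shDIS3L2 and 17 in shHNRNPU, against 8 in control.

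A wider list of 34 genes of sterol metabolism was read in the same way, of which 26 were measured. In shDIS3L2, 3 were higher and 3 lower by the size rule, each 11.5% of them beside 8.95% and 7.58% of all genes. With intervals apart, 10 lay above control and 8 below, 38.5% and 30.8% beside 32.7% and 25.3%, so these shares were near those of all genes, and the median log2 ratio was -0.01. NCEH1, a hydrolase of cholesterol esters, stood at 102 FPKM (97.6 to 106) in shDIS3L2 and 28.6 FPKM (26.9 to 30.3) in shHNRNPU, against 14.3 FPKM (13.3 to 15.3) in control, and CAV1, the coat protein of caveolae, at 34.2 FPKM (32.1 to 36.3) in shDIS3L2 and 20.1 FPKM (18.4 to 21.9) in shHNRNPU, against 10.6 FPKM (9.58 to 11.6) in control. C14orf1, which anchors the enzymes of sterol demethylation, stood at 68.5 FPKM (64.8 to 72.3) in shDIS3L2 and 53.1 FPKM (50.3 to 56) in shHNRNPU, against 32.3 FPKM (30.3 to 34.3) in control. These 3 were the higher genes. All of them lay above control with intervals apart in shHNRNPU too.

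SREBF1, which encodes the relative of SREBP-2 that drives fatty acid synthesis, was among the lower genes of shDIS3L2, at 21.6 FPKM (19.7 to 23.6) in shDIS3L2 and 50.2 FPKM (47.2 to 53.1) in shHNRNPU, against 44.3 FPKM (42.1 to 46.5) in control. Its log2 ratio was barely past the threshold of -1 in shDIS3L2. In shHNRNPU its interval lay above that of control, but not after rescaling. ERLIN1, a membrane protein in the degradation of the sterol machinery, stood at 10.9 FPKM (9.99 to 11.7) in shDIS3L2 and 23.2 FPKM (21.3 to 25.1) in shHNRNPU, against 23.3 FPKM (21.6 to 25) in control, but its locus is merged with the kinase gene CHUK. TMEM97, the third, was listed at 0 in shDIS3L2, and stood at 22.8 FPKM (21 to 24.6) in shHNRNPU, against 32.3 FPKM (30.3 to 34.2) in control.

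In shHNRNPU, 0 of the 26 were higher and 3 lower by the size rule, beside 8.32% and 7.46% of all genes. With intervals apart, 10 lay above control and 8 below, 38.5% and 30.8% beside 34.9% and 23.4%, with a median log2 ratio of 0.06. ACAT1, the mitochondrial thiolase, stood at 85.3 FPKM (80.1 to 90.5) in shDIS3L2 and 14.5 FPKM (12.7 to 16.4) in shHNRNPU, against 90.6 FPKM (85.5 to 95.6) in control, a log2 ratio of -2.56 in shHNRNPU. LRP1, an endocytic receptor for lipoprotein remnants, stood at 9.93 FPKM (8.93 to 10.9) in shDIS3L2 and 6.68 FPKM (5.7 to 7.67) in shHNRNPU, against 17.4 FPKM (16.2 to 18.5) in control. LRP8, a receptor for reelin, stood at 14.3 FPKM (13.2 to 15.4) in shDIS3L2 and 4.49 FPKM (3.69 to 5.29) in shHNRNPU, against 10.2 FPKM (9.43 to 11.1) in control, with a locus that carries a second name in shDIS3L2 and control. LRP1 lay below control in both knockdowns with intervals apart, and LRP8 above it in shDIS3L2 and below it in shHNRNPU.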

How the data were processed

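FPKM per gene and their interval bounds were used as the authors deposited them for 3 libraries. Per the labels' protocols, TRIZOL extraction and a DNase clean-up preceded library preparation with a NEBNext Ultra kit. The submitters' processing notes name TopHat2 2.0.12, Cufflinks 2.2.1 and hg19. Annotation release, normalization options and interval level were not found in these sources; the bounds were read as the 95% of Cufflinks' default. Identifiers in the deposited tables show assembly in each library, so that loci can differ in bounds or carry several names (2373 loci in shDIS3L2, 2441 in shHNRNPU and 2411 in control); 5 of the 33 genes had such loci. Apart from ACAT2, their bounds differed between libraries by at most 270 bases. Fragment counts are not in the tables. Read from FPKM and interval, 25.1%, 22.9% and 23.8% of estimates up to 20 fragments in shDIS3L2, shHNRNPU and control were whole within 0.02, too few for a count test; those in loci with the same bounds gave relative depth. Mitochondrial entries numbered 10 in shDIS3L2 and 9 in shHNRNPU, against 0 in control, and any effect on FPKM scaling is unknown.

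Genes were matched by symbol, names that share a locus in every library counted as 1, and a pseudocount of 1 was added before log2, which understates differences of low genes. Python 3.11.15 with pandas 2.3.3 was used, and the size rule was tested on simulated data. Settings tried were pseudocounts of 0.1 and 5, other filters, median-of-ratios rescaling, a 1.5-fold threshold, and leaving out genes listed at 0 or loci with several names. The cholesterol genes and lists were chosen with earlier results of these data known. All 33 were named by rule, as were wider-list genes past the size rule against control.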

Additional observations from a re-analysis of the deposited data

How the results depend on the processing

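With 1 library per group, no library was left out and no difference between conditions was tested. No paired analysis was possible because each group holds 1 library. Other settings for the counts with intervals apart and for single genes were added after the data were seen.

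In shDIS3L2 against control, the 4 genes lower by the size rule became 8 at a 1.5-fold threshold and 1 (SCARB1) without loci of several names; the 0 higher became 1 (INSIG2) with a pseudocount of 0.1 and 2 at 1.5-fold. In shHNRNPU against control, the 4 lower became 2 without loci of several names, and the 1 higher (INSIG2) became 2 with a pseudocount of 0.1, 0 with a pseudocount of 5, 0 at a mean of at least 5 FPKM and 2 at 1.5-fold; the 5 higher with intervals apart became 3 at a mean of at least 5 FPKM. For shHNRNPU against shDIS3L2, the 1 higher became 2 with a pseudocount of 0.1 and 4 at 1.5-fold, and the 1 lower became 2 at 1.5-fold. These moves follow from the construction of each setting: another threshold, pseudocount or set of genes. The other counts stayed within 1.5 times and no called gene reversed. Of all genes, the 1.5-fold threshold took in 15% lower and 19% higher in shDIS3L2 against control, 13.8% and 19.9% in shHNRNPU against control, and 18.7% and 20.4% between the knockdowns, also more than by the size rule. Without loci of several names, the 1 and 2 of 24 genes lower in shDIS3L2 and shHNRNPU stood beside 6.7% and 7.07% of all genes. Counts this small, with or without loci of several names, cannot be read as an excess over the shares of all genes. With a pseudocount of 0.1, 10.8% and 11.2% of all genes were higher in shDIS3L2 and shHNRNPU against control, and 12.3% between the knockdowns. In shHNRNPU against control, 4% were higher with a pseudocount of 5 and 7.74% at a mean of at least 5 FPKM. Medians ranged between -0.45 and -0.24 in shDIS3L2 against control, -0.30 and -0.07 in shHNRNPU against control, and 0.02 and 0.17 between the knockdowns. With a pseudocount of 5, LSS in shHNRNPU had a log2 ratio of -0.94 and no longer passed. Over all genes, rescaling turned 981 higher and 879 lower in shHNRNPU to 760 and 1080.

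After rescaling, the direction turned for genes whose intervals overlapped with control (NSDHL, NPC2 and SOAT1 in shDIS3L2; CYP51A1, SC5D, SCAP, STARD4 and NPC1 in shHNRNPU). INSIG2, STARD4 and MYLIP are limited by low FPKM.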

Other observations

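Among genes of the wider list outside the naming rule, chosen after their values were seen, OSBP and STARD5, both of which encode proteins that bind sterols or carry lipids between membranes, differed most between the knockdowns. OSBP stood at 11.6 FPKM (10.7 to 12.4) in shDIS3L2 and 32.2 FPKM (30.4 to 33.9) in shHNRNPU, against 16.8 FPKM (15.7 to 17.8) in control, so that shDIS3L2 lay below control and shHNRNPU above it with intervals apart. STARD5 stood at 1.68 FPKM (0.871 to 2.49) in shDIS3L2 and 5.66 FPKM (3.92 to 7.4) in shHNRNPU, against 4.29 FPKM (3.0 to 5.58) in control, on a locus that carries a second name in each library. NR1H2, which encodes the sterol-sensing nuclear receptor LXR-beta, stood at 55.2 FPKM (51.7 to 58.7) in shDIS3L2 and 90.4 FPKM (85.5 to 95.3) in shHNRNPU, against 52.3 FPKM (49.1 to 55.4) in control, and its relative NR1H3 was listed at 0 in all 3 libraries. MBTPS1, the Golgi protease that makes the first cut in SREBP proteins, stood at 37.5 FPKM (35.2 to 39.7) in shDIS3L2 and 33.4 FPKM (31.3 to 35.6) in shHNRNPU, against 24.7 FPKM (23.1 to 26.3) in control, above control in both knockdowns. The bile acid and oxysterol enzymes CYP7A1, CYP39A1 and CH25H were listed at 0 in all 3 libraries, and CYP27A1 stood at 13.3 FPKM (12 to 14.6) in shDIS3L2 and 13.6 FPKM (12.3 to 14.8) in shHNRNPU, against 14.7 FPKM (13.5 to 15.9) in control.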
